A study of Mus musculus with 6 samples.

Results

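The p53 pathway was followed through 32 genes chosen by name: the tumour suppressor gene Trp53, its regulators Mdm2 and Mdm4, and genes known to be activated by p53 or named for their link to it. A gene's value was the median over probe sets annotated to exactly 1 gene, with updated symbols. Of the 32 genes, 30 had such a probe set, among 20352 genes of the whole table, and 28 kept at least 1 probe set above the filter on dim signal and were tested, among 14586 genes. Trp53 and Bax had no probe set under this rule and were not analysed here, and Eda2r and Zmat3 had none above the filter. Measured genes lay on 6 arrays of stem cells sorted from mouse bone marrow by the gate KLSCD34- (c-Kit and Sca-1 on the surface, without lineage markers or CD34). The controls numbered 3 arrays, and their alleles are given in the labels as control alone. The other 3 arrays came from mice that carried floxed beta-catenin alleles and were positive for Vav-Cre, and are called floxed. Vav-Cre is active across the blood lineages, so its recombination is not limited to the sorted cells. The labels give no age, sex or strain, nor whether an array stands for 1 animal or a pool, so a p-value reflects array-to-array spread, part of which may be technical.

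The p53 protein is a transcription factor that is kept at low levels by MDM2, a ubiquitin ligase, and by its relative MDM4. DNA damage, oxidative stress and oncogenic signals release it, and it then activates genes that halt the cell cycle, repair DNA, limit oxidants or start cell death, along with Mdm2 itself, which closes a negative feedback loop. In blood stem cells p53 is known for holding cells in quiescence and for removing damaged cells. Oxidative stress, which is among the signals p53 answers, also stands in the series title.

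The p53 tetramer binds DNA at pairs of a half-site of 10 bases. The stretches here show the matches that lie just before a transcription start in each of 5 members described below. They come from RefSeq promoter windows of the build GRCm38.p6, which run from 250 bases before to 50 bases after each start and covered 24 of the 32 genes. Cdkn1a and Sesn1 each had another window, at a different start, that held no half-site. Letters matching the p53 half-site consensus are in capitals, and the consensus reads the same on both strands.
Cdkn1a, chr17:29090881-29090962, plus strand: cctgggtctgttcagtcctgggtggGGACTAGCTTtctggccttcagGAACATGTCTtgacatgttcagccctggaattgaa
Mdm2, chr10:117710910-117710969, minus strand: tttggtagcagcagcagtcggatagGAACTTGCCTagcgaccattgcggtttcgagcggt
Ccng1, chr11:40755437-40755496, minus strand: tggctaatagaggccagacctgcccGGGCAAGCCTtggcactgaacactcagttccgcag
Gadd45a, chr6:67037413-67037472, minus strand: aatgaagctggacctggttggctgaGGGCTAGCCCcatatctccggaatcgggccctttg
Sesn1, chr10:41887241-41887300, plus strand: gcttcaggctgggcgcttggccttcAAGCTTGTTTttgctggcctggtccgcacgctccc

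Half-sites were held by 13 of 32 member windows (40.6%), belonging to 12 genes, and by 8.36% of all 32851 windows of that length. Several windows of 1 gene can overlap and share a site, as those of Aen do. A full site was taken here as 2 half-sites that match the consensus at every letter, with 0 to 13 bases between them. Such a site was present in 1 member window, the upstream start of Cdkn1a, and in 0.0731% of all windows. Pairs with any mismatched letter were not marked or counted. Such a pair lies in the Cdkn1a stretch. The 10 bases right after its second marked half-site match the consensus except at their first letter. A match is a description of letters, and the members had been chosen as p53 targets. Among tested members, the 10 with a half-site in a window had a median log2 difference, floxed minus control, of 0.06, with 6 above and 4 below 0. For the 11 with a window and no half-site the median was −0.004, with 4 above and 7 below.

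None of the p53 pathway genes passed the test. In limma with Benjamini-Hochberg adjustment, 0 of 28 passed the threshold of 0.05 (smallest adjusted p = 0.999), against 0% of the 14586 genes, and 0 of 28 had an unadjusted p under 0.05, against 3.70% of all genes. Differences ran from −0.35 for Gtse1 to 0.31 for Mdm4, with 16 members above 0 (57.1%, against 54.2% of all genes) and 12 below. Their median was 0.05 log2, beside 0.02 over all genes tested. All 28 had a 95% confidence interval within 1 log2 unit of 0, as did 97.1% of all genes, and for 8 of 28 it lay within 0.5 log2, against 45.8% of all genes. The lowest bound of any member was −0.73 (Gtse1) and the highest 0.77 (Ddit4l). Groups did not overlap for 3 of 28 (10.7%), against a background of 8.44%: Mdm4 and Phlda3 were higher on the floxed arrays, as were 5.57% of all genes, and Gtse1 was lower, as were 2.87%. The plot of differences by role shows all intervals crossing 0.

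**Figure D1:**
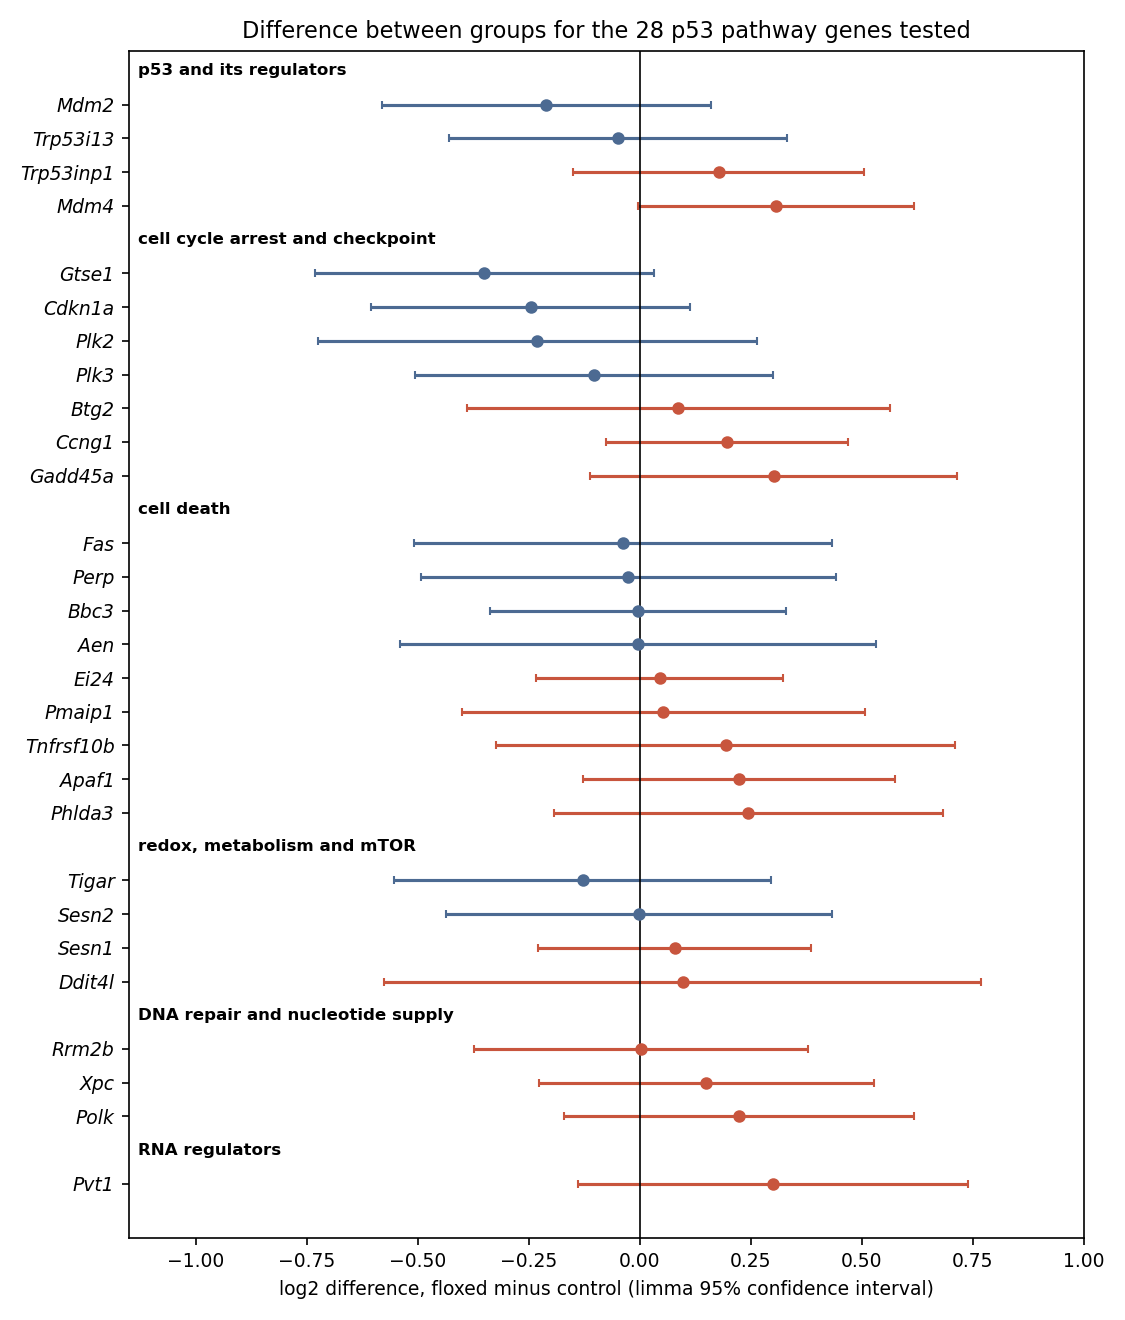
Log2 difference (floxed minus control, x axis) of the 28 tested p53 pathway genes, grouped by role, with the limma 95% confidence interval as a bar; red marks a difference above 0 and blue one below. Points lie between −0.35 (Gtse1) and 0.31 (Mdm4), and each interval includes 0.

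Mdm2 and Mdm4, which both restrain p53, lay on opposite sides. Mdm2 had log2 values of 9.21, 9.13 and 9.32 on control replicates 1 to 3, and 9.27, 8.72 and 9.03 on the floxed arrays. Floxed replicate 2 was the lowest of the 6, floxed replicate 1 lay inside the control range, and the groups overlapped. The means were 9.22 ± 0.10 (SD, n = 3) and 9.01 ± 0.28 (SD, n = 3), a difference of −0.21 (95% confidence interval −0.58 to 0.16). Without floxed replicate 2 the difference was −0.07.

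Mdm4 had 9.18, 9.09 and 9.22 in controls and 9.50, 9.59 and 9.31 on the floxed arrays. Each floxed array was above each control, with means of 9.16 ± 0.06 (SD, n = 3) and 9.47 ± 0.15 (SD, n = 3). The difference of 0.31 (SE 0.14, 95% confidence interval −0.003 to 0.62, limma adjusted p = 0.999) had the smallest p of the tested members and ranked 570 among the 14586 genes. On single probe sets all 13 of Mdm4 were above 0, between 0.005 and 0.51, and 0 passed. The groups overlapped on each of the 13, so they were separate only in the gene median. On 1 of these probe sets floxed replicate 3 was at 10.07, below controls of 10.37 to 10.64. It was also below all controls on another, at 9.37 against 9.39 to 9.71. On a further probe set floxed replicate 1 was at 7.79, below controls of 7.95 to 8.47. The Mdm4 difference stayed above 0 in all 15 alternatives, from 0.04 with the filter at the 75th percentile to 0.39. The lowest limma adjusted p among those, 0.0783, came with array weights. That setting gave control replicate 2 a weight of 3.37, against 0.27 and 0.40 for control replicates 1 and 3.

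Trp53inp1, whose nuclear protein promotes p53 activity, had means of 9.36 ± 0.19 (SD, n = 3) and 9.54 ± 0.11 (SD, n = 3), a difference of 0.18. It was −0.04 with the filter at the 75th percentile. Trp53i13, named as p53-induced, was at 7.96 ± 0.06 (SD, n = 3) and 7.91 ± 0.12 (SD, n = 3).

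**Figure D2:**
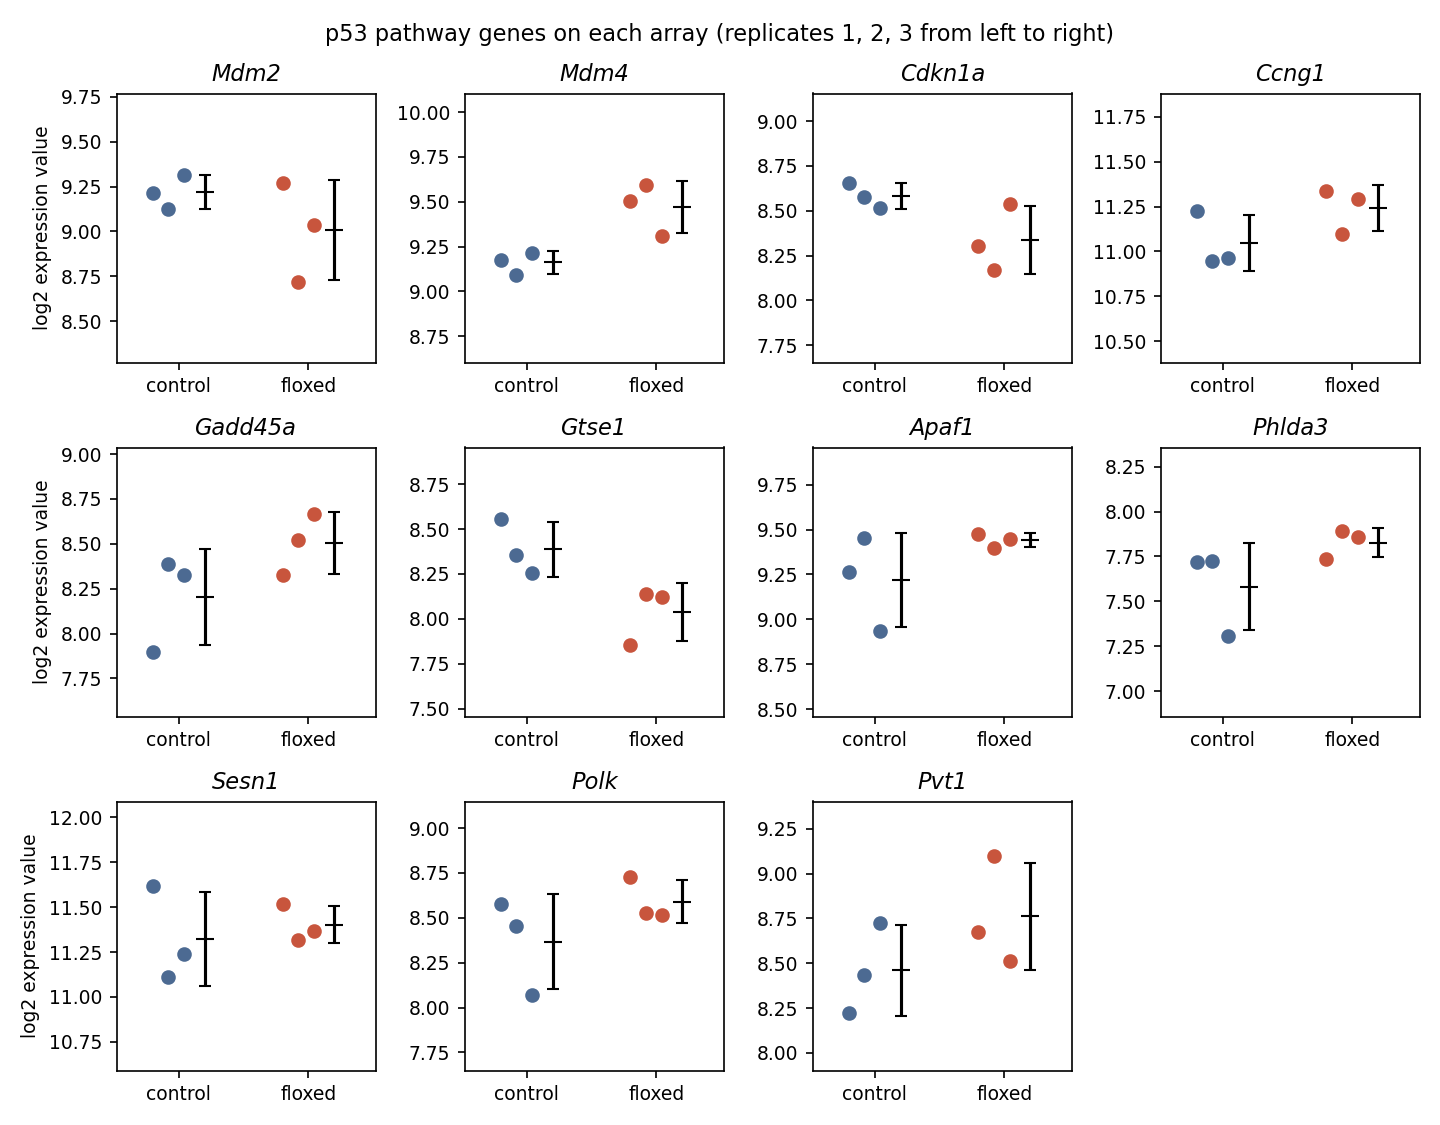
Log2 expression values on each array for 11 p53 pathway genes (control blue, floxed red; replicates 1 to 3 from left to right), with the group mean and SD (n = 3) as a black bar. Mdm4 and Gtse1 separate the groups, in opposite directions, Phlda3 does so by a narrow gap, and the other 8 overlap.

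Genes of cell cycle arrest and checkpoint gave 3 differences above 0 and 4 below, with a median of −0.10 over the 7. That median is the value of Plk3, which turned to 0.18 with all its probe sets. Cdkn1a encodes p21, the inhibitor of cyclin-dependent kinases through which p53 halts the cycle. Its values were 8.66, 8.58 and 8.51 in controls and 8.30, 8.17 and 8.54 on the floxed arrays. Floxed replicate 3 lay among the controls, and the other two were below them all. Means were 8.58 ± 0.07 (SD, n = 3) and 8.34 ± 0.19 (SD, n = 3), with a difference of −0.25 (95% confidence interval −0.60 to 0.11). All 3 kept probe sets of Cdkn1a were below 0, between −0.38 and −0.22, and over 14 alternatives the gene ran from −0.38 to −0.16.

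Ccng1, whose cyclin G1 takes part in p53 feedback through MDM2, differed in sign from Mdm2 and Cdkn1a. Its values were 11.23, 10.95 and 10.96 in controls, and 11.34, 11.10 and 11.29 on floxed arrays. Control replicate 1 reached into the floxed range and the groups overlapped. The difference was 0.20 (95% confidence interval −0.08 to 0.47). It was 0.05 with the mean of the probe sets, of which 5 were above 0 and 3 below.

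Gadd45a, a growth arrest gene induced by DNA damage, had 7.90, 8.39 and 8.33 in controls against 8.33, 8.52 and 8.67 on floxed arrays. Control replicate 1 was the lowest array, and the other controls overlapped the floxed arrays. The difference of 0.30 (95% confidence interval −0.11 to 0.72) became 0.15 without that array, and 0.14 with the mean of its 3 kept probe sets.

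Gtse1, whose microtubule-associated protein appears in G2 and S phase and moves p53 out of the nucleus, showed the lowest difference of the members. Values were 8.56, 8.36 and 8.25 in controls and 7.85, 8.14 and 8.12 on floxed arrays. Each floxed array was below each control, and floxed replicate 1 was the lowest. Means were 8.39 ± 0.15 (SD, n = 3) and 8.04 ± 0.16 (SD, n = 3), with a difference of −0.35 (SE 0.17, 95% confidence interval −0.73 to 0.03, limma adjusted p = 0.999). Of its 10 kept probe sets 7 were below 0, and over 15 alternatives the gene ran from −0.42 to −0.18. Genes of G2 and mitosis were listed because Gtse1 is itself a G2 gene. Of these, 16 of 19 lay above 0, against 54.2% of all genes, with a median of 0.18. In limma 0 of 19 passed and 1 had an unadjusted p under 0.05, against 3.70% of all genes. The mean deviation of this list was 0.12, −0.08 and −0.27 on control arrays and 0.14, 0.05 and 0.04 on floxed arrays, so the groups overlapped in that mean. For single genes the groups did not overlap for 3 of 19, against 8.44% of all genes. These were Birc5, Mki67 and Top2a, all higher on the floxed arrays. In that list the inhibitor of apoptosis Birc5 was at 0.35, the mitotic kinase gene Cdk1 at 0.40 and the proliferation marker Mki67 at 0.21. The difference between Gtse1 and these genes was not tested.

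The polo-like kinase genes Plk2 and Plk3, stress-responsive relatives of the mitotic kinase gene Plk1, were at −0.23 and −0.10. Plk2 rested on 3 of 14 probe sets and Plk3 on 2 of 16, and with all probe sets they turned to 0.04 and 0.18. Btg2, an antiproliferative gene, had 10.14 on control replicate 1 against 9.36 and 9.31 on the other controls, and 9.63, 9.91 and 9.53 on the floxed arrays. Its difference of 0.09 (95% confidence interval −0.39 to 0.56) became 0.35 without that control array.

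The 9 tested genes of cell death had a median difference of 0.04, with 5 above and 4 below 0. The BH3-only genes Bbc3 and Pmaip1, which encode PUMA and NOXA and drive the mitochondrial death pathway, were at −0.004 and 0.05. Bbc3 had 8.55, 8.77 and 8.54 in controls and 8.58, 8.58 and 8.69 on floxed arrays, so all floxed arrays lay within the control range. Apaf1, the scaffold of the apoptosome, had 9.26, 9.45 and 8.93 in controls and 9.48, 9.40 and 9.45 on floxed arrays. The floxed arrays were close together (9.44 ± 0.04, SD, n = 3), and control replicate 3 was well below the other controls. The Apaf1 difference was 0.22 (95% confidence interval −0.13 to 0.58), 0.08 without control replicate 3, and 23 of 27 probe sets were above 0.

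Phlda3, whose protein competes with AKT for membrane lipids, had 7.72, 7.72 and 7.30 in controls and 7.73, 7.89 and 7.86 on the floxed arrays. Control replicate 2 and floxed replicate 1 nearly met, so the groups were separate by a narrow gap, and the value rested on 1 of 2 probe sets. The difference of 0.24 (95% confidence interval −0.19 to 0.68) was 0.09 with both probe sets. Death receptor genes were spread among the controls. Fas ran from 8.76 to 9.65 in controls and from 9.18 to 9.34 on floxed arrays, and Tnfrsf10b, the mouse TRAIL receptor, from 7.79 to 8.76 and from 8.29 to 8.49. In both genes the floxed range lay inside the control range, and the differences were −0.04 and 0.19. Fas rested on 1 of 9 probe sets, and with all of them it was −0.22. Perp, a membrane protein gene, and the nuclease gene Aen were at −0.03 and −0.003, with control SDs of 0.39 and 0.53. Ei24, an endoplasmic reticulum protein gene, was at 0.04 (95% confidence interval −0.23 to 0.32). Over the 9 genes 8 had a larger SD in controls than in floxed arrays. Among all 28 members this held for 19 (67.9%), against 73.6% of all genes tested.

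Genes that link p53 to redox state and metabolism gave small differences. The sestrins SESN1 and SESN2 limit oxidants and hold back mTORC1. Sesn1 had 11.62, 11.11 and 11.24 in controls and 11.52, 11.32 and 11.37 on floxed arrays, so the floxed arrays lay within the control range. Its difference was 0.08 (95% confidence interval −0.23 to 0.39), with all 9 probe sets above 0, and it was −0.03 when 1 control array, replicate 2, was left out. Sesn2 was at 8.14 ± 0.16 (SD, n = 3) and 8.14 ± 0.29 (SD, n = 3). Tigar, a fructose bisphosphatase gene whose product spares glucose for the pentose phosphate pathway, was at −0.13, and between −0.27 (without control replicate 1) and −0.016 (without floxed replicate 2) when single arrays were left out. The mTORC1 inhibitor gene Ddit4l was at 0.10. Ddit4l rested on 1 of 5 probe sets, had SDs of 0.52 in controls and 0.49 on floxed arrays, and turned to −0.25 with all its probe sets.

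The 3 genes of DNA repair and nucleotide supply were above 0. Polk, which encodes a translesion DNA polymerase, had 8.58, 8.45 and 8.07 in controls and 8.73, 8.53 and 8.52 on the floxed arrays. Control replicate 3 was low and control replicate 1 overlapped the floxed arrays. The difference was 0.22 (95% confidence interval −0.17 to 0.62) and 0.07 without control replicate 3. Xpc, a sensor of damage in nucleotide excision repair, was at 0.15, and −0.09 with array weights. Rrm2b, the p53-inducible subunit of ribonucleotide reductase, was at 0.003. Its sign depended on the scaling, and both quantile normalization and equal medians of the arrays gave −0.03.

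Of the RNA regulators, Pvt1, a long noncoding RNA gene next to Myc, had 8.22, 8.43 and 8.72 in controls and 8.67, 9.10 and 8.51 on floxed arrays. Floxed replicate 2 was the highest, and the groups overlapped. The difference of 0.30 (95% confidence interval −0.14 to 0.74) rested on 1 of 6 probe sets. It was 0.13 without floxed replicate 2 and 0.18 without control replicate 1. Zmat3, which encodes an RNA-binding zinc finger protein, had 8 probe sets and none above the filter. Its median over all of them was 6.39, 6.71 and 6.28 in controls and 6.28, 6.65 and 6.79 on floxed arrays, which overlapped. Eda2r, the ectodysplasin A2 receptor gene, had 9 probe sets that gave 5.55, 5.43 and 5.38 in controls and 5.51, 5.41 and 5.52 on floxed arrays. Without the filter Zmat3 and Eda2r had differences of 0.11 (SE 0.20) and 0.03 (SE 0.17).

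**Figure D3:**
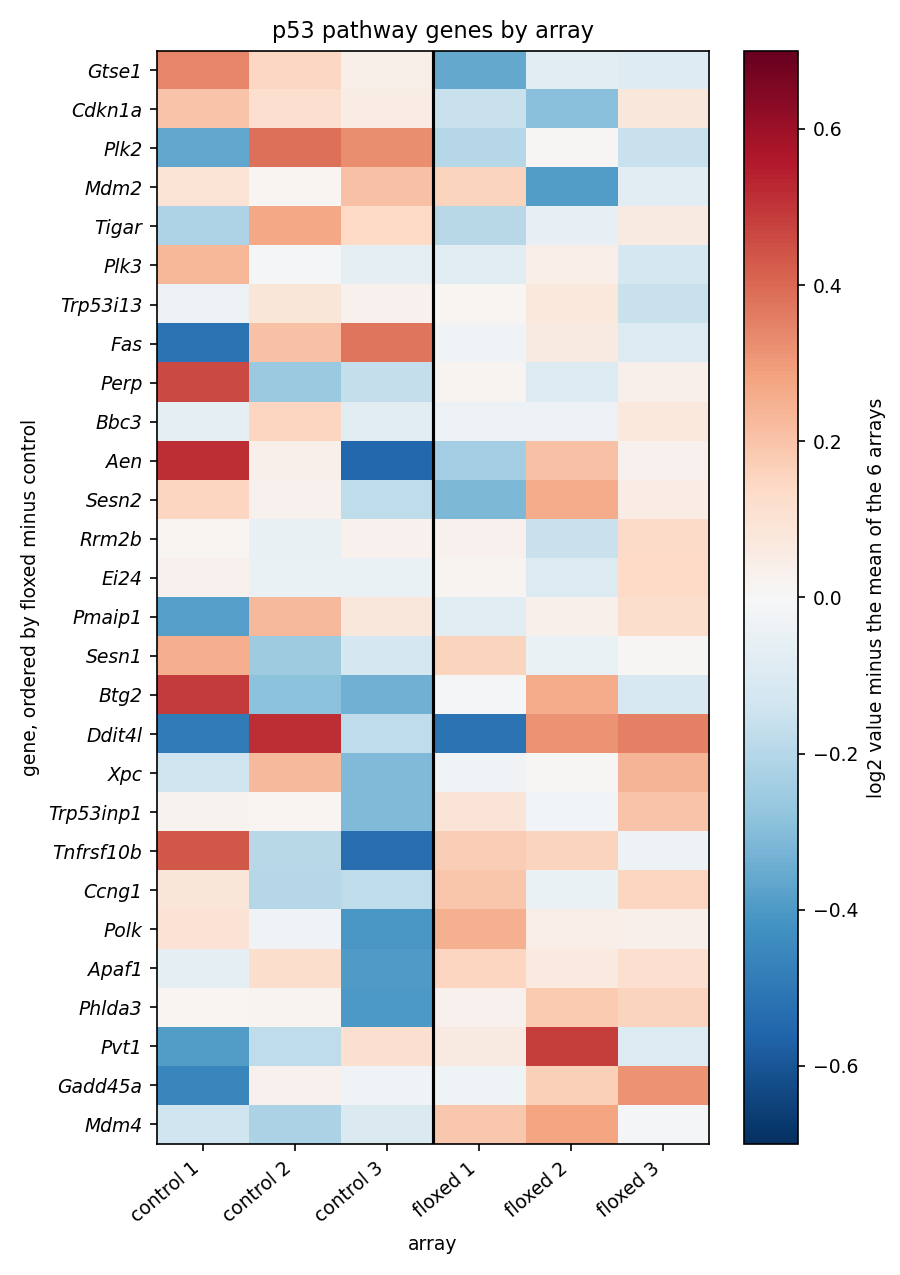
Log2 value minus the mean of the 6 arrays (colour, red above and blue below) for the 28 tested genes, ordered by floxed minus control from the lowest at the top; columns are arrays and the black line parts the groups. Strong colours lie mostly in the control columns, and control 3 is the lowest array for 9 genes.

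Control replicate 3 was the lowest array for 9 of 28 members (32.1%), and for 34.7% of all genes, and it was the highest for 2. Control replicate 1 was the highest for 8 members and the lowest for 6. The median deviation of the members from their mean was 0.02, 0.02 and −0.09 for controls 1 to 3 and −0.002, 0.04 and 0.04 for floxed 1 to 3. Over all genes these medians were 0.003, 0.03 and −0.08, and −0.02, 0.02 and 0.03. The heat map of deviations shows Tnfrsf10b, Aen, Apaf1, Polk and Phlda3 low together on that control array.

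Single probe sets of a member differed more widely than the gene medians. Of 171 kept probe sets of members, 0 passed in limma (smallest adjusted p = 0.975), against 0.00414% of all kept probe sets. That share stands for 5 probe sets, all of them of the targeted gene Ctnnb1. An unadjusted limma p under 0.05 was reached by 6 of the 171 (3.51%), against 4.33% of kept probe sets of 1 gene and 4.35% of all kept. Of the 171, 113 were above 0 (66.1%, against 58.9% of kept probe sets of 1 gene). The 6 belonged to 5 genes: Polk with 2, and Xpc, Mdm2, Apaf1 and Mdm4 with 1 each. Probe sets of 1 gene are not independent replicates. The first Xpc probe set by number had 7.99, 8.24 and 6.51 in controls and 8.68, 8.87 and 9.04 on floxed arrays. All floxed arrays were above all controls, control replicate 3 was far below the rest, and the difference was 1.29 (SE 0.39, limma adjusted p = 0.975), against 0.15 for the Xpc gene median. The second Mdm2 probe set had 10.20, 10.98 and 10.47 in controls and 10.02, 9.52 and 10.10 on floxed arrays. There, too, the groups did not overlap, with a difference of −0.67 (SE 0.23, limma adjusted p = 0.975). Some probe sets of other members, such as Apaf1, Polk and Gtse1, also had groups that did not overlap. The share over all kept probe sets was not counted, so these separations have no background here. The first 4 of the 12 Mdm2 probe sets ran from −0.67 to −0.36, and of the other 8, 5 were above 0. That split was seen in the values, and the sources used here do not place probe sets on exons. A test of probe sets within a gene, limma's diffSplice, called 0 of 23 members (smallest adjusted p = 1) and 0.0169% of the 11831 genes it could test.

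**Figure D4:**
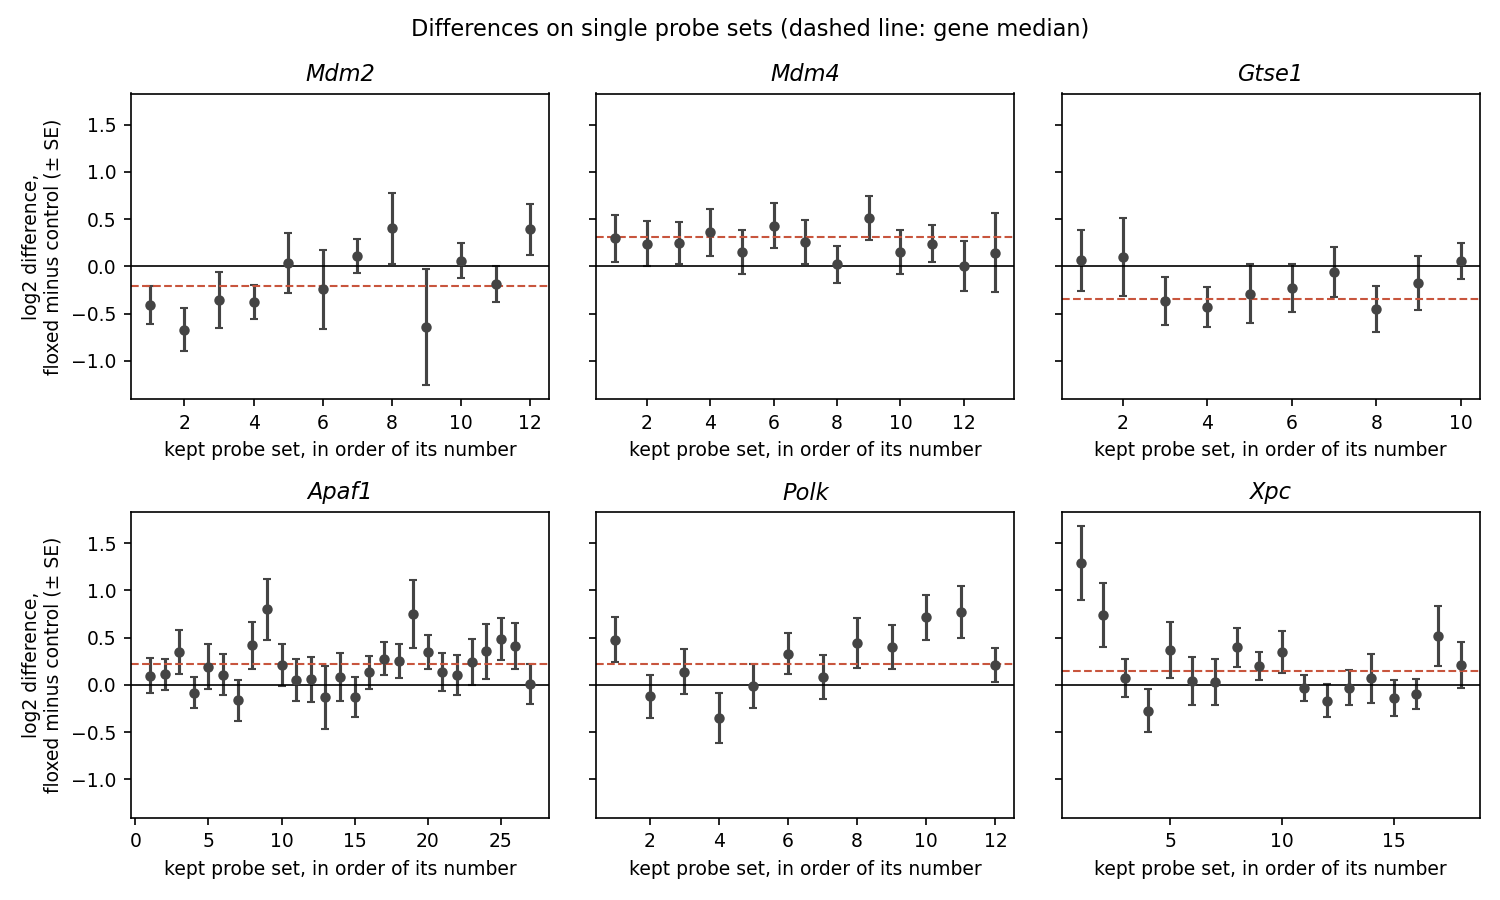
Log2 difference (floxed minus control) with its SE for each kept probe set of 6 genes, in order of probe-set number (x axis); the dashed line is the difference of the gene median. Mdm4 points all lie above 0, the first 4 of Mdm2 lie below 0, and the first of Xpc reaches 1.29.

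How the members were summarised changed several of them. With all probe sets of a gene, dim ones included, 30 members could be measured, and groups did not overlap for 4 of them (13.3%), against 10.5% of all genes: Mdm2 and Gtse1 lower, and Mdm4 and Apaf1 higher, on the floxed arrays. Mdm2 was then 8.97, 9.02 and 9.05 in controls and 8.92, 8.70 and 8.83 on floxed arrays, with a difference of −0.20. Cdkn1a was −0.38, and Bbc3 0.30, with Bbc3 controls spread from 5.76 to 7.38. No member passed there either (smallest limma adjusted p = 0.915). Olfactory receptor genes, which blood cells are not known to use, gave a scale for dim signal: 95% of 985 such genes lay at or below 6.31 log2 by the median of all probe sets. Fas (5.46), Eda2r (5.47), Pvt1 (6.19) and Plk2 (6.31) were no brighter than that, although the 1 kept probe set of Fas averaged 9.29 in controls. The other 26 of 30 members were brighter, as were 66.3% of all genes. Among those 26 was Zmat3 (6.52), which had no probe set above the filter. Probes differ in brightness at equal RNA, so this does not rank the genes.

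**Figure D5:**
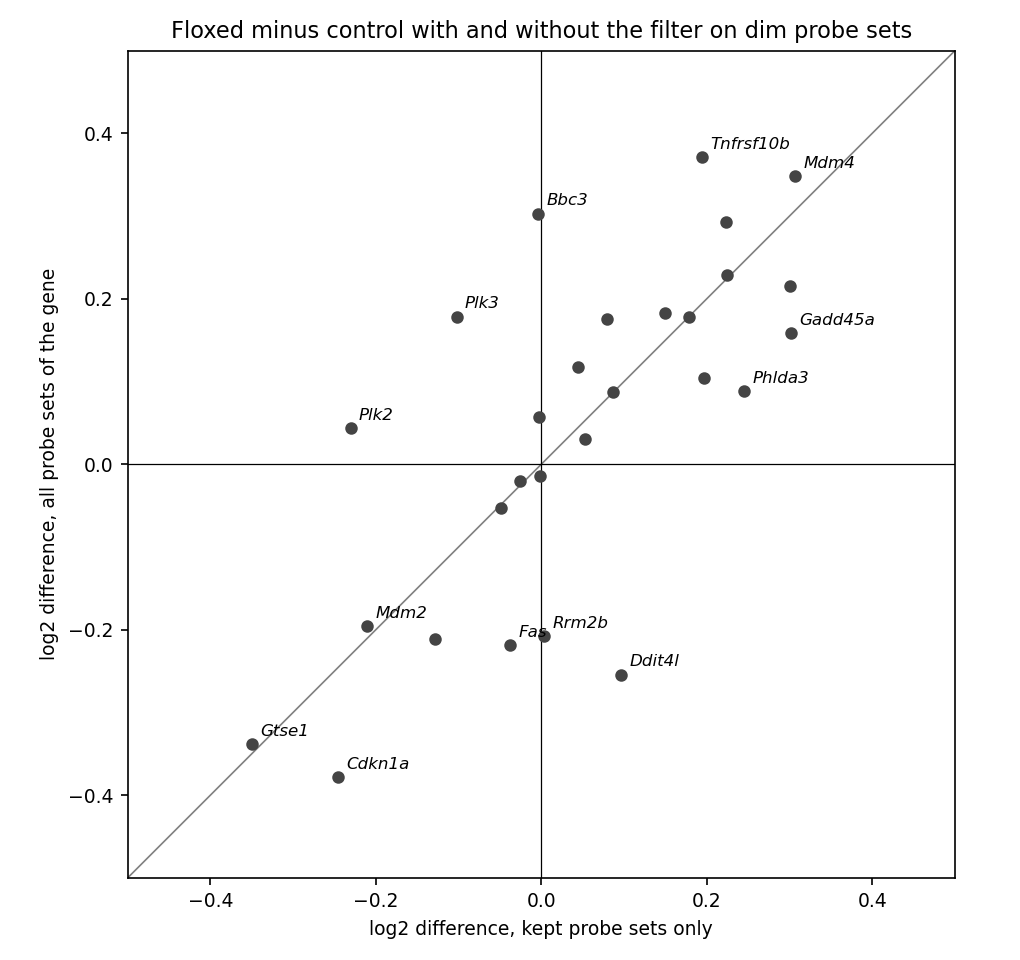
Log2 difference (floxed minus control) of the 28 tested genes from kept probe sets (x axis) and from all probe sets (y axis); the grey line marks equal values. Mdm4, Mdm2 and Gtse1 lie near the line, and Bbc3, Plk3, Plk2 and Ddit4l are farther from it.

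Other genes of the pathway were counted over whole lists. Of 29 tested kinases, cofactors and modifiers of p53, 19 were above and 10 below 0 (median 0.07); 0 passed in limma and 0 had an unadjusted p under 0.05. Those with the smallest p were Set, a histone chaperone gene whose product inhibits p53 acetylation, at 0.23 (SE 0.11), Usp7, the deubiquitinase gene of MDM2 and p53, at 0.26 (SE 0.14), and Hipk2, a kinase gene whose product phosphorylates p53, at −0.19 (SE 0.11). Set had 10.88, 11.15 and 11.01 in controls and 11.20, 11.25 and 11.28 on floxed arrays, and Hipk2 had 10.81, 10.71 and 10.70 against 10.49, 10.53 and 10.61. Set and Hipk2 were among 5 of 29 genes in that list whose groups did not overlap, against 8.44% of all genes; the others, Usp28, Cop1 and Atr, were higher on the floxed arrays.

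Of 24 other p53 targets that could be tested, 14 were above and 10 below 0 (median 0.008), with 0 passing and 0 at an unadjusted p under 0.05. The smallest p belonged to Thbs1, the thrombospondin 1 gene, at −0.91 (SE 0.42), with 8.77, 7.76 and 9.76 in controls and floxed arrays between 7.36 and 8.21. Control replicate 3 held the highest value of Thbs1 and the groups overlapped. Cgref1, a growth regulator gene, was at −0.27 and Triap1, whose product counters apoptosis, at 0.33.

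Marker genes of other cells were set beside these values. Stem cell markers were present: Kit was at 11.84 ± 0.06 (SD, n = 3) and 11.73 ± 0.11 (SD, n = 3), and 10 of the 12 listed could be tested, with a median of 0.03. Slamf1 was at 0.23, and Hoxb5 did not reach the filter. Cd34 RNA was at 12.68 ± 0.03 (SD, n = 3) and 12.65 ± 0.04 (SD, n = 3), although the gate excludes surface CD34. Of 12 granulocyte and macrophage markers 11 were below 0 (median −0.29, Ngp at −0.88), and of 11 erythroid and megakaryocyte markers 10 (median −0.20, Epor at −0.48 and Car1 at −0.14). Over all 14586 genes tested, 6683 were below 0. The mean deviation of the granulocyte list was 0.38, 0.48 and −0.30 on control arrays and −0.41, −0.34 and 0.19 on floxed arrays, so the groups overlapped. That of the erythroid list ran from −0.07 to 0.25 in controls and from −0.23 to 0.19 on floxed arrays. B cell markers ran from −0.77 to 0.70 in controls and from −0.25 to 0.32 on floxed arrays, lowest on control replicate 3 (Vpreb1 at −0.14, Cd79b at −0.07). For T and NK cells 4 of 5 were below 0 (Cd4 at −0.63, Nkg7 at 0.07), with mean deviations from 0.06 to 0.15 in controls and from −0.35 to 0.15 on floxed arrays. Of 9 markers of stroma and endothelium 7 were below 0 (Cldn5 at −0.50, Runx2 at −0.16), from −0.14 to 0.15 and from −0.13 to 0.04. No list had a member passing in limma. An unadjusted limma p under 0.05 was reached by 2 of 12 granulocyte and 2 of 11 erythroid genes, against 3.70% of all genes. The part of these markers in the values of the p53 genes was not tested. In such bulk samples fewer cells of a type and less RNA per cell cannot be told apart.

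The targeted gene checks the labels. Over its 16 kept probe sets Ctnnb1 had a difference of −0.88 (SE 0.14, limma adjusted p = 0.667), and 5 of the probe sets passed, from −6.90 to −2.51. Over genes, which are no replicates, Pearson correlations between arrays ran from 0.880 to 0.934 among controls, 0.962 to 0.972 among floxed arrays and 0.915 to 0.963 between groups.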

How the data were processed

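Expression was measured on 6 arrays. The authors deposited log2 values for 241576 probe sets; MAS5 is named in the submitters' processing notes, with no role, and how background and scale were handled is not given in the sources used here. A base of log2 was read from the values (2.44 to 14.53). Array medians were 7.56 to 7.65, and nothing was rescaled. The precision is limited by the number of arrays.

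In the platform annotation 212097 probe sets had 1 gene and were named; 4475 had several and 25004 none. Of 20416 symbols, 17621 were current in a RefSeq table of GRCm38.p6, 2742 were updated through it and 53 were unmatched. Probe sets with a mean over the 6 arrays at or above the median of all such means (7.60) were kept, 120788 in all and 110361 of them with 1 gene. The test on gene medians was limma 3.58.1 (R 4.3.3; lmFit, eBayes with trend, two-sided, Benjamini-Hochberg over all genes, threshold 0.05). In simulated data, 200 of 14586 genes were changed by 1, 2 or 4 log2 in each of 10 rounds. There the test recovered 63.3% of changes of 1 log2 and 95.8% of changes of 2 log2. The Benjamini-Hochberg cutoff loosens as more genes change, and the real data had 0 genes passing. These shares therefore do not tell how often a lone change would be recovered. Changes as small as those of the members were not simulated. Each simulated gene had the same SD in both groups, whereas 73.6% of the real genes had a larger SD in controls.

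Values on every array are given for Mdm2, Mdm4 and Cdkn1a, the 10 members with the smallest p and those with the highest and lowest mean; other members shown in full, the single probe sets, Kit and Hoxb5 were chosen after their values were seen. Of other pathway lists the 3 genes with the smallest p were named, and of marker lists the one with the smallest p and the one with the highest mean. The members and lists were chosen with earlier results of these data known. Alternatives were other scalings, filters, summaries, variance models, weights for arrays, a block for the replicate number, and leaving out each array; diffSplice and the count of groups that do not overlap without the filter were added after seeing the data.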

Additional observations from a re-analysis of the deposited data

How the results depend on the processing

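Under the 15 alternatives, 0 p53 pathway genes passed in limma (the smallest adjusted p of a member ran from 0.0783 to 0.9998 between alternatives). Of their probe sets 0 passed in the 14 alternatives that apply to probe sets, and diffSplice, added later, called 0 genes of the pathway. Over all genes the count of 0 became 2 with no filter, 1 with the mean over probe sets and 404 with array weights. The weights were 0.27, 3.37 and 0.40 for controls 1 to 3, and 1.18, 2.06 and 1.13 for floxed 1 to 3. The weighted control mean thus rested mostly on control replicate 2. Leaving out single arrays gave 0 to 2, the 2 without control replicate 1. The cause of these counts was not tested. Leaving out single arrays put the median difference of the members between 0.0018 and 0.11, the latter without floxed replicate 1. Of 28 members, 11 kept their sign throughout, among them Mdm2, Mdm4, Cdkn1a, Ccng1 and Gtse1. With no filter, Aen turned to 0.058, Bbc3 to 0.30, Ddit4l to −0.25, Plk2 to 0.044, Plk3 to 0.18 and Rrm2b to −0.21. With the filter at the 75th percentile, Aen turned to 0.11, Trp53i13 to 0.12, Trp53inp1 to −0.036 and Xpc to −0.047. With the mean over probe sets, Aen turned to 0.16 and Trp53i13 to 0.027. With array weights, Aen turned to 0.031, Ddit4l to −0.28, Perp to 0.17, Pmaip1 to −0.15, Sesn2 to 0.034 and Xpc to −0.088. Quantile normalization turned Rrm2b to −0.035, and equal medians of the arrays to −0.028.

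When 1 array was left out, signs turned within these ranges: Aen −0.28 to 0.26, Bbc3 −0.043 to 0.070, Btg2 −0.059 to 0.35, Ddit4l −0.12 to 0.38, Ei24 −0.015 to 0.10, Fas −0.31 to 0.14, Perp −0.16 to 0.20, Pmaip1 −0.13 to 0.18, Rrm2b −0.062 to 0.083, Sesn1 −0.027 to 0.23, Sesn2 −0.13 to 0.15, Tnfrsf10b −0.025 to 0.46 and Trp53i13 −0.10 to 0.017.

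The replicate number as a block left 0 of 14586 genes and 0 of 28 members past the threshold, with a smallest limma adjusted p of 0.999 in both. Deviations of same-numbered arrays from their group means correlated at 0.20, −0.004 and −0.24 across genes. Deviations within a group sum to 0, so these correlations constrain one another and cannot settle whether the numbers pair the arrays. The main test did not treat the arrays as paired. Not every array correlated best with its own number: control 2 was at 0.28 with floxed 3, and control 3 at 0.29 with floxed 2. The values carry no detection calls, so how far dim members stand over background is not known.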
